A study of Homo sapiens with 4 samples.

Results

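CDK inhibitors and D-type cyclins set the pace of the G1 phase, and 10 of these genes were followed here across peak lists of histone acetylation and SMARCB1 binding. They were taken by name whatever their values: the Cip/Kip inhibitor genes CDKN1A, CDKN1B and CDKN1C, the INK4 inhibitor genes CDKN2A, CDKN2B, CDKN2C and CDKN2D, and the D-type cyclin genes CCND1, CCND2 and CCND3. All 10 were found among the 19821 protein-coding genes used for comparison.

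D-type cyclins bind and activate the kinases CDK4 and CDK6, which phosphorylate the retinoblastoma protein RB and so free E2F transcription factors to switch on genes for DNA replication. INK4 proteins bind CDK4 and CDK6 and block them, whereas Cip/Kip proteins bind assembled cyclin-CDK complexes, above all those of CDK2. SMARCB1 belongs to the SWI/SNF complexes, which move nucleosomes, and in rhabdoid tumour cells, which lack it, its return is known to raise CDKN2A and to lower CCND1.

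All libraries came from SK-Hep1, described by the submitters as a liver adenocarcinoma line. H3K27ac, acetylation of lysine 27 of histone H3 and a mark of active promoters and enhancers, was mapped by ChIP-seq in cells stably expressing an shRNA against SMARCB1 (shSMARCB1) and in cells stably expressing a control shRNA (shCon), both kept under puromycin selection. A further library mapped SMARCB1 itself, in cells whose shRNA the labels do not give, and an input library was not analysed here. Each group had 1 library, so no value below has a replicate check, no test between conditions was possible, and the intervals given are 95% Wilson intervals that cover counting error only. How far the shRNA lowered SMARCB1 cannot be read from peak lists.

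The shSMARCB1 library held 10203310 tags and 34073 H3K27ac peaks of median width 1601 bp, against 13235203 tags and 35307 peaks of median width 1707 bp in the shCon library, a 1.30-fold difference in tags. The H3K27ac lists hold positions but no peak height, so every value below is a peak's presence or the length of DNA it covers. The SMARCB1 list held 4453 peaks. Of the markers examined at a gene end, meaning no more than 1 kb from where the gene record begins or stops, H3K27ac lay in both libraries at 2 of 12 hepatocyte genes, 1 of 9 endothelial genes, 5 of 7 mesenchymal genes and 2 of 5 leukocyte genes. No acetylated sequence lay within 20 kb of ALB, APOB, CYP3A4, HNF4A or TTR in either library, although the line is labelled as hepatic.

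The promoters of these genes open the account because the acetylated domains described below lie over them. The RefSeq promoter table (GRCh38.p14, the assembly of hg38) held 12 start sites for 7 of the 10 genes. Of these, 9 starts, belonging to CDKN1A, CDKN1B, CDKN2C, CDKN2D and CCND3, lay under H3K27ac in both libraries, and 3 starts, those of CDKN2A and CDKN2B, lay under it in neither. The 250 bases before 6 of the acetylated starts are shown, chosen by the wider library's peak over them, with ties given to the start of lowest coordinate, which left out another CDKN2C start under the same peak. Capitals mark the GC box GGGCGG, bound by SP1-family factors, and the CCAAT box, bound by NF-Y, each on either strand.
CDKN1A, chr6:36678464-36678713 (+): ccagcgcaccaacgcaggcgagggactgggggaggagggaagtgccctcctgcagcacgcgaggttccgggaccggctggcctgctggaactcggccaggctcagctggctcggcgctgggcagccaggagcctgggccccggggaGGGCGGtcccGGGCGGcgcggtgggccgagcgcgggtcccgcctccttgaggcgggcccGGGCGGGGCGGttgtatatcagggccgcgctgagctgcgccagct
CDKN1B, chr12:12717118-12717367 (+): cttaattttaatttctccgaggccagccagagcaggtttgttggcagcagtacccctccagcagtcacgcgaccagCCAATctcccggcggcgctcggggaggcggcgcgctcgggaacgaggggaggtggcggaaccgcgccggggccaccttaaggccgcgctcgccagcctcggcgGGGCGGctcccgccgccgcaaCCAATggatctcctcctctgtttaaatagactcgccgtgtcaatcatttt
CDKN2C, chr1:50968456-50968705 (+): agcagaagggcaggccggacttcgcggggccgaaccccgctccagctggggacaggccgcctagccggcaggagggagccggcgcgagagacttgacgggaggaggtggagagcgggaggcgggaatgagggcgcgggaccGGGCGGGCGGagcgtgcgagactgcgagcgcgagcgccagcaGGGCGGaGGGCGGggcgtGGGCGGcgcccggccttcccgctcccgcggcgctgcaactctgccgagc
CDKN2D, chr19:10568980-10569229 (-): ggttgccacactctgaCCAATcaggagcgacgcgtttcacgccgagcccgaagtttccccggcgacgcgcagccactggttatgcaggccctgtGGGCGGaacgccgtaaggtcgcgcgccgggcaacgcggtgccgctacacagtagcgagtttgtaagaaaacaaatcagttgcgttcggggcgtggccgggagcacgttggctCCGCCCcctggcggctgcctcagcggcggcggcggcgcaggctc
CCND3, chr6:41941809-41942058 (-): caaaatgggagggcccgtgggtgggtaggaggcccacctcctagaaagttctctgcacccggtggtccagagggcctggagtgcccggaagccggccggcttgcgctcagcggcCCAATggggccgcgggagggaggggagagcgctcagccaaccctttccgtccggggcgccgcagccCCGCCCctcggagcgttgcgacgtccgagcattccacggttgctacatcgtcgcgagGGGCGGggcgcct
CCND3, chr6:41939206-41939455 (-): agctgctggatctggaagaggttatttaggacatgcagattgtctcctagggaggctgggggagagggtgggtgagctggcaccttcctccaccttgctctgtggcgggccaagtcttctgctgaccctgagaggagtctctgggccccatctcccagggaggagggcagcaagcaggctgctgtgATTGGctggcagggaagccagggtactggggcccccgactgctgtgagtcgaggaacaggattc

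A GC box was found in 5 of these 6 promoters, against 53.7% of the 22156 promoters in the table, and a CCAAT box in 4 of 6, against 32.7%. None of the 6 held the E-box CACGTG, the AP-1 sequence TGACTCA or TATAAA, each again read on both strands, which were found in 7.37%, 3.46% and 9.0% of all promoters. GC boxes overlapped one another in the stretches GGGCGGGGCGG of CDKN1A and GGGCGGGCGG of CDKN2C. The CDKN2C promoter had a GC content of 77.2% and 35 CpG pairs, where the table's medians were 62% and 16. CDKN2D had the next highest number, 33 CpG pairs. The CCND3 start at 41939205, inside the longer gene record, differed from the rest, with 3 CpG pairs and no GC box. A letter match is a description of these windows and shows neither a bound factor nor its absence.

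Among the 10 genes, acetylation was found around 8 in both libraries and around 2, CDKN2A and CDKN2B, in neither. H3K27ac within 20 kb of the gene record in both libraries was found for 78.6% of all protein-coding genes. At a gene end it was found in both libraries for 7 of the 10, the exceptions being CDKN2A, CDKN2B and CCND2, against 61.4% of all protein-coding genes. With a peak at either end counted, none of the 10 had the mark in 1 library only. Among the 19821 genes, 432 had it with shCon only and 149 with shSMARCB1 only. At CCND1 the left end was marked in both libraries, but the right end with shCon only. By length of acetylated DNA in the shCon library the order was CCND3, CCND1, CDKN1B, CDKN2D, CDKN1A, CDKN1C, CDKN2C and CCND2. CCND3 and CCND1 ranked 588 and 727 among the 19821 genes, and CCND2 ranked 12721. With 1 library a group, the spread that would separate neighbours in this order could not be measured.

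**Figure D1:**
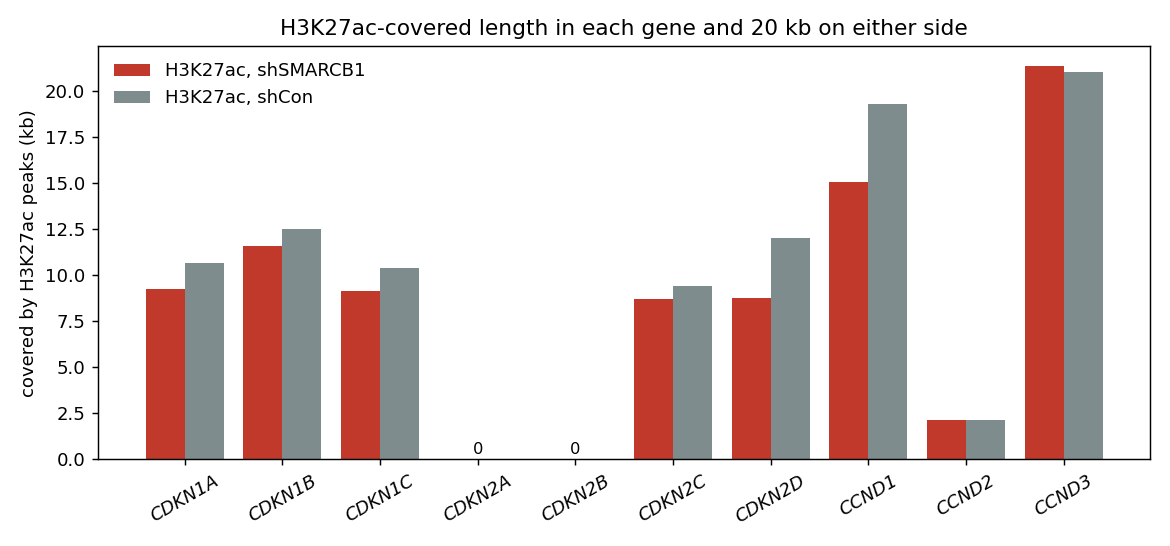
Length of DNA covered by H3K27ac peaks (kb, vertical axis) in each gene record and 20 kb on either side, in the shSMARCB1 library (red) and the shCon library (grey), 1 library each. CDKN2A and CDKN2B are at 0 in both, and the bars of CDKN2D and CCND1 differ most between libraries.

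A gene was called changed where acetylated length in this window differed at least 1.5-fold and reached at least 500 bp in either library. None of the 8 acetylated genes was called lower in shSMARCB1 cells and none was called higher, where 10.7% of all tested genes were called lower and 3.49% higher. At a 1.25-fold threshold CDKN2D and CCND1 were lower and none was higher, against 28.7% and 6.37% of tested genes. The 8 genes had a median ratio of 0.90 (shSMARCB1 over shCon), beside a median of 0.88 over all tested genes. Of the 8, 7 were below 1, as were 12434 of the 16135 tested genes. CDKN1B, CDKN2C, CCND2 and CCND3 lay above 1 (1.04, 1.04, 1.12 and 1.14) when acetylated length was divided by each library's total. Summed over the 10 windows, 85974 bp were acetylated in shSMARCB1 cells and 97430 bp in shCon cells. Total peak length was itself lower in the shSMARCB1 library, at 70.9 Mb against 79.5 Mb (ratio 0.892), and the part that its fewer tags play in narrower peaks was not tested.

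CDKN1A encodes the inhibitor through which p53 halts the cycle after DNA damage. In its window H3K27ac covered 9223 bp in shSMARCB1 cells and 10676 bp in shCon cells, a ratio of 0.86. The start site lay in a broad domain of 7564 bp in shSMARCB1 cells (chr6:36675635-36683198), against 8092 bp in shCon cells (chr6:36675369-36683460). The domain was thus nearly the same in both libraries, with its left edge 266 bp further in with shSMARCB1. A separate upstream peak accounted for most of the difference, with 1659 bp in shSMARCB1 cells and 2584 bp in shCon cells. Genome-wide, 10.5% of shared peaks had a lower width ratio than its 0.642.

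CDKN1B encodes the inhibitor that holds CDK2 in check in resting cells. Acetylated length in its window was 11567 bp in shSMARCB1 cells and 12507 bp in shCon cells, a ratio of 0.92. Nearly all of it was a single domain of 11522 bp in shSMARCB1 cells (chr12:12716152-12727673) and 11830 bp in shCon cells (chr12:12716040-12727869). The whole gene record of 5002 bp lay under this domain in both libraries, together with the end of GPR19, LOC105369663 and part of APOLD1. It ranked 248 by width among shSMARCB1 peaks and 349 among shCon peaks. The peak that shCon cells alone had in this window was 501 bp wide, the shortest width in the list, and lay in APOLD1 (chr12:12737294-12737794).

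CDKN1C, an imprinted gene for the remaining Cip/Kip inhibitor, had 9155 bp of acetylated sequence in shSMARCB1 cells and 10401 bp in shCon cells, a ratio of 0.88. The peak over the gene covered 2696 bp in shSMARCB1 cells (chr11:2883872-2886567) and 3156 bp in shCon cells (chr11:2883586-2886741). The other acetylated sites lay on the high-coordinate side, towards SLC67A1. They did not move together: at 2 of these 3 shared sites the peak was slightly wider in shSMARCB1 cells, at 2124 against 2113 bp and at 2703 against 2550 bp, and at the other it was 1632 against 2081 bp. A peak of 501 bp (chr11:2896523-2897023) was found with shCon only.

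**Figure D2:**
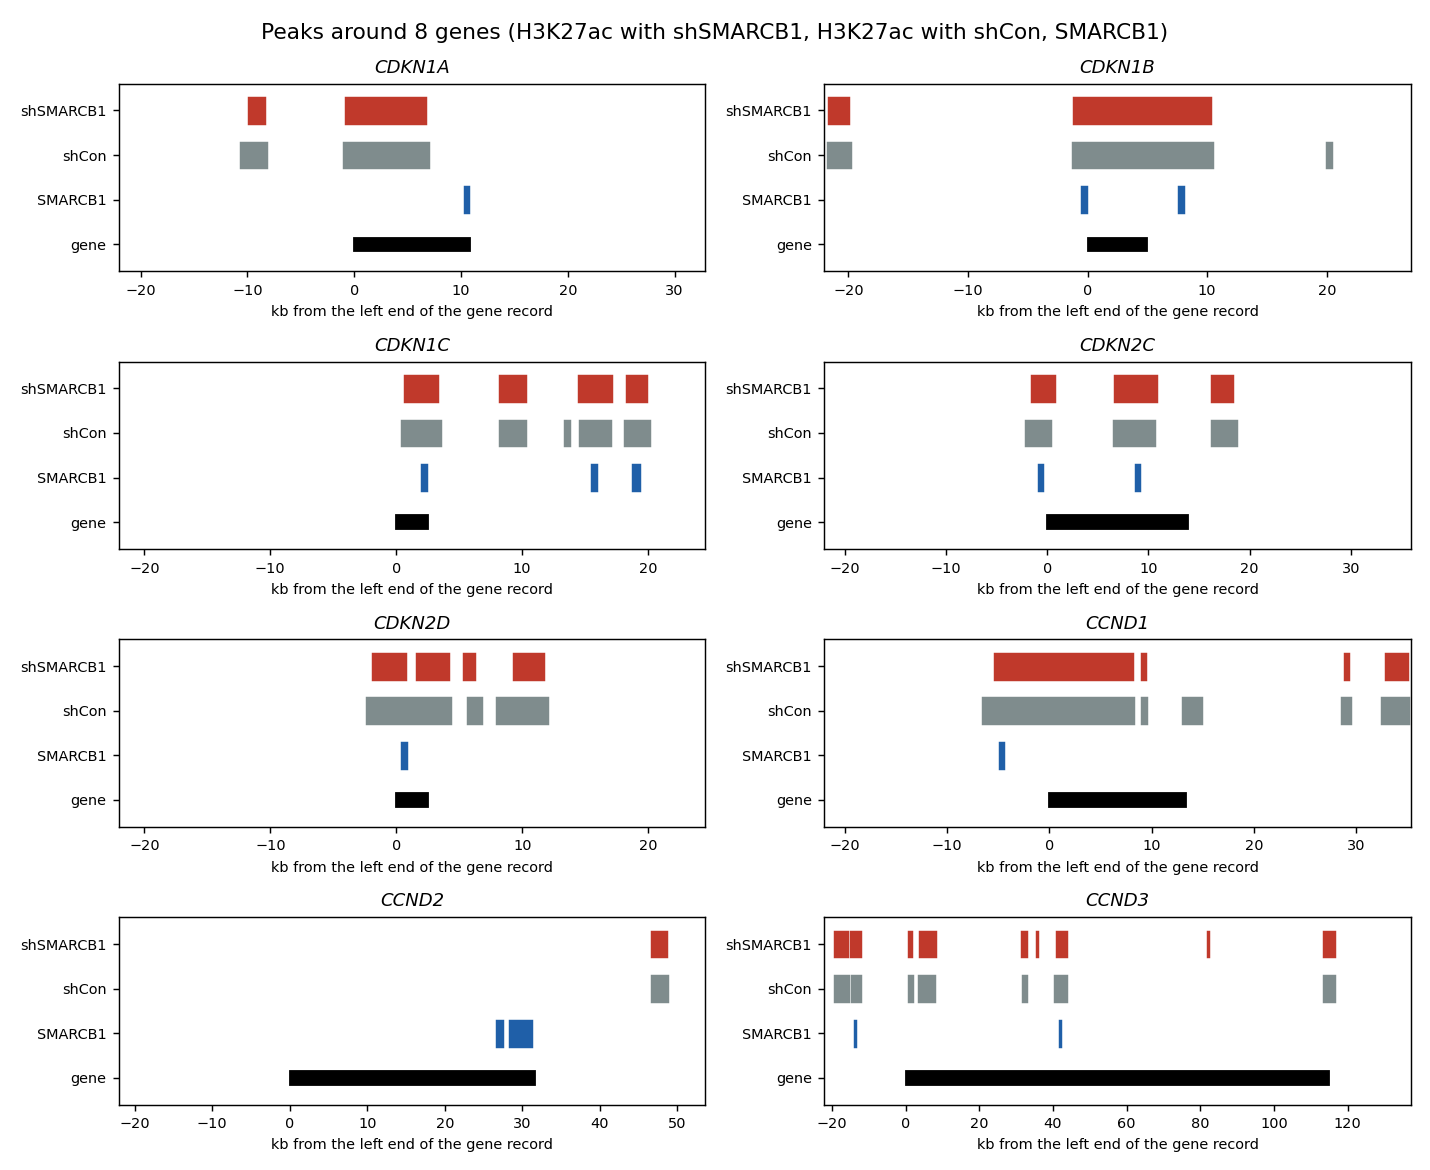
Peaks around the 8 acetylated genes, with distance in kb from the left end of each gene record on the horizontal axis. Rows show H3K27ac peaks with shSMARCB1 (red), H3K27ac peaks with shCon (grey), SMARCB1 peaks (blue) and the gene record (black). CDKN2D shows 2 shSMARCB1 peaks above 1 shCon domain. CCND1 has a peak at its right end with shCon but not with shSMARCB1, and the SMARCB1 peaks of CCND2 lie apart from any H3K27ac peak.

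The INK4 genes divided into 2 acetylated and 2 unmarked loci. CDKN2A, which encodes an INK4 inhibitor and, in another reading frame, the p53-stabilising protein ARF, had 0 bp of H3K27ac within 20 kb in shSMARCB1 cells and 0 bp in shCon cells. Its neighbour CDKN2B, whose window overlaps that of CDKN2A, was likewise at 0 bp in both, and no SMARCB1 peak was found near either. The nearest acetylated site on the left lay at KLHL9, 632 kb from CDKN2A, at chr9:21334194-21335964 in shSMARCB1 cells and chr9:21334418-21335799 in shCon cells. The nearest on the right lay at TUSC1, 3668 kb away. Both lists therefore left the same stretch of 4.34 Mb without a peak.

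The gap held 12 protein-coding genes, among them MTAP, DMRTA1, ELAVL2 and several interferon alpha genes beside CDKN2A and CDKN2B. Of the gaps between neighbouring peaks, 12 of 34050 in shSMARCB1 cells and 12 of 35284 in shCon cells were as long or longer. Acetylation resumed on both flanks: MLLT3, left of KLHL9, had 11713 bp in shSMARCB1 cells and 12256 bp in shCon cells. SMARCB1 peaks were missing from a wider stretch of 13.0 Mb. Peak lists alone show no signal here, and lost DNA and unacetylated chromatin cannot be told apart without the input.

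**Figure D3:**
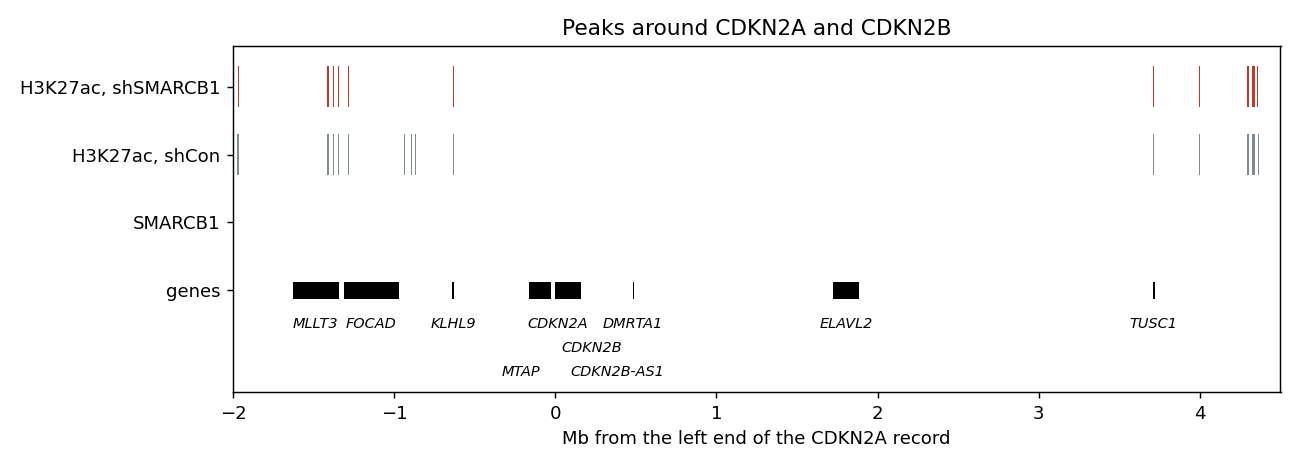
Peaks and gene records around CDKN2A and CDKN2B, with distance in Mb from the left end of the CDKN2A record on the horizontal axis. Rows show H3K27ac peaks with shSMARCB1 (red), H3K27ac peaks with shCon (grey), SMARCB1 peaks (none in this stretch) and genes (black). Both H3K27ac rows are empty between KLHL9 and TUSC1.

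CDKN2C, an INK4 gene induced during differentiation in several lineages, was acetylated at all 3 of its listed starts. Its window held 8727 bp in shSMARCB1 cells and 9392 bp in shCon cells, a ratio of 0.93. The widest peak, over the promoter printed above, was 4241 bp wide in shSMARCB1 cells (chr1:50967325-50971565) and 4208 bp in shCon cells (chr1:50967216-50971423). The peak at the outer start, shared with an end of FAF1, measured 2331 bp in shSMARCB1 cells and 2638 bp in shCon cells. It was displaced as well as narrower: its left edge lay 640 bp and its right edge 333 bp further right with shSMARCB1.

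CDKN2D, whose INK4 product varies with the cell cycle, had the lowest ratio of the 8 genes, with 8748 bp in shSMARCB1 cells against 12029 bp in shCon cells (0.73). Of all tested genes, 16.9% had a lower ratio. In shCon cells a single domain of 6753 bp covered the gene (chr19:10564075-10570827), whereas shSMARCB1 cells had 2 peaks of 2733 and 2673 bp in its place (chr19:10564511-10567243 and chr19:10567989-10570661). The break between them was 745 bp long, lay wholly inside the gene record, and did not include the annotated start. Among peaks of all widths, 3.05% of shCon peaks lay over several shSMARCB1 peaks, and 0.974% of shSMARCB1 peaks lay over several shCon peaks. The CDKN2D domain was wider than 96.2% of shCon peaks, and the share of such breaks among wide peaks alone was not computed. Beyond the gene, a peak towards AP1M2 was 2459 bp wide in shSMARCB1 cells and 4103 bp in shCon cells, a ratio of 0.599 that 7.99% of shared peaks were below. With peaks of at least 1000 bp alone, CDKN2D passed the 1.5-fold threshold, at a ratio of 0.65, as did 13.2% of all genes tested with those peaks, in the same direction.

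CCND1 encodes cyclin D1, which links growth factor signalling to CDK4 and CDK6. H3K27ac covered 15067 bp of its window in shSMARCB1 cells and 19298 bp in shCon cells, the largest difference in length among the 10 genes and a ratio of 0.78, below which 25.1% of tested genes lay. The main domain started upstream of the gene record and ran into it, over 13535 bp in shSMARCB1 cells (chr11:69635753-69649287) and 14885 bp in shCon cells (chr11:69634574-69649458). It ranked 159 by width among shSMARCB1 peaks and 198 among shCon peaks. Most of its difference lay at the upstream edge, 1179 bp further in with shSMARCB1. Each of the 4 shared peaks at CCND1 was narrower with shSMARCB1.

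A further CCND1 peak was present with shCon only. It covered 1969 bp at chr11:69654148-69656116, of which 327 bp lay in the gene record and 1642 bp beyond its right end, the 3′ end of this gene. It was wider than 98.3% of all shCon peaks that had no shSMARCB1 counterpart. The nearest shSMARCB1 peak was 3530 bp away.

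CCND2 stood apart from the other D-type cyclin genes. Its window held 2120 bp in shSMARCB1 cells and 2123 bp in shCon cells, a ratio of 0.999, all in 1 peak at the neighbouring gene TIGAR. No acetylated base lay in the CCND2 record itself in either library. On the left the nearest H3K27ac peak was 108 kb from the gene in both libraries. Cyclin D2 is the D-type cyclin best known from lymphoid and ovarian cells.

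CCND3, which encodes the most widely expressed D-type cyclin, had the longest acetylated sequence of the 10 genes, 21367 bp in shSMARCB1 cells and 21004 bp in shCon cells (ratio 1.02, turning to 0.94 in a window of 50 kb on either side). Its record is also the longest, and the share of the window covered was 13.8% in shSMARCB1 cells and 13.5% in shCon cells, below the 28.3% and 36.2% of CCND1. The peak over the 2 printed promoters measured 4620 bp in shSMARCB1 cells (chr6:41938487-41943106) and 4631 bp in shCon cells (chr6:41938358-41942988). At the outer start, shared with TAF8, the peak measured 3152 bp in shSMARCB1 cells and 3322 bp in shCon cells. Both peaks that shSMARCB1 cells alone had near the 10 genes lay in CCND3 (chr6:41970282-41970782 and chr6:42016859-42017359), each of the shortest width, 501 bp.

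The 10 windows held 29 H3K27ac peaks in each library. Of those in shSMARCB1 cells, 27 overlapped a shCon peak, and the 2 that did not (6.90%) compare with 12.2% genome-wide. Of those in shCon cells, 26 overlapped a shSMARCB1 peak, and the 3 that did not (10.3%) compare with 17.7%. Where 1 peak met 1 peak, the shSMARCB1 peak was narrower in 20 of 25 pairs, 80% (60.9 to 91.1%), with a median width ratio of 0.884. Genome-wide 69.6% of 27345 such pairs were narrower, with a median ratio of 0.913, and the interval for the 10 genes includes that share. The direction at these genes was that of the list as a whole.

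**Figure D4:**
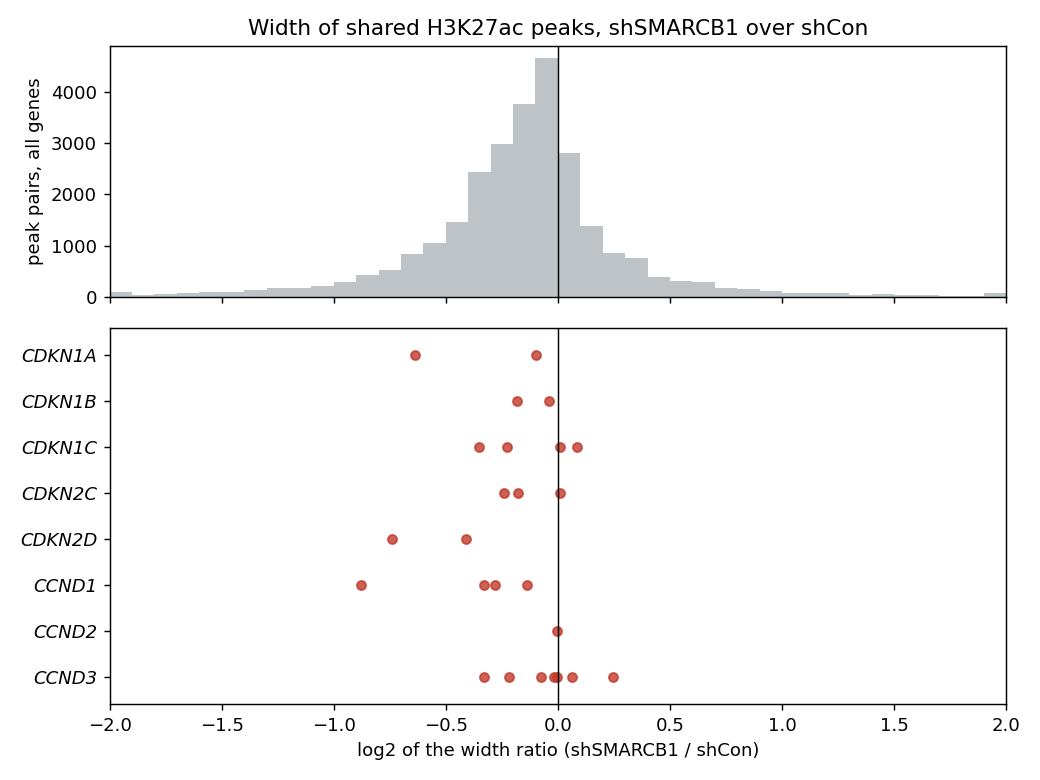
Width of shared H3K27ac peaks as log2 of the ratio of shSMARCB1 to shCon (horizontal axis). The upper panel counts all one-to-one pairs in the genome (vertical axis, number of pairs; pairs beyond the axis are in the outermost bars), and the lower panel shows each pair near 8 of the genes as a point, with a line at equal width. Points lie mostly left of the line, as the genome-wide pairs do. All pairs of CDKN1A, CDKN1B, CDKN2D and CCND1 lie left of it, and the single CCND2 pair, with a ratio of 0.999, lies almost on it.

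SMARCB1 peaks were found within 20 kb of 8 of the 10 genes, the same 8 that were acetylated, against 28.2% of all protein-coding genes and 34.1% of genes with at least 500 bp of H3K27ac. With the 50% of SMARCB1 peaks of higher number, 4 of the 10 genes had one (CDKN1B, CDKN1C, CDKN2C and CCND2), against 18.4% of all protein-coding genes. CDKN2C counted only through a peak tied with the list's median number of 11.6. In all, 14 SMARCB1 peaks lay within 20 kb of the 10 genes, 7 of them over 1 of these genes and 9 over or within 1 kb of 1. Of the 14, 11 were 500 bp wide, the shortest width in the list and that of 66.8% of all SMARCB1 peaks. The authors' list gives each peak a number of unstated unit, used below to rank peaks within the list. Near the 10 genes its median was 10.85, beside 11.6 for the whole list, and 8 of the 14 lay below 11.6.

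The Cip/Kip genes carried 6 of the peaks. At CDKN1B, 1 peak overlapped 228 of the 250 printed promoter bases (chr12:12716846-12717345, number 11.6), and another lay in the same acetylated domain at LOC105369663 (chr12:12724955-12725454, 13.2). Both are of the authors' promoter-TSS class. CDKN1C had a peak over an exon (chr11:2885174-2885673, 11.1) and 2 promoter-TSS peaks towards SLC67A1, 12931 bp away (chr11:2898707-2899206, 8.98) and 16181 bp away (chr11:2901957-2902605, 16.4). At CDKN1A the peak lay in the 3′ UTR class (chr6:36686730-36687229, 10.0), beyond the acetylated domain.

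Among the INK4 genes, CDKN2C had a promoter-TSS peak inside the gene (chr1:50969373-50969872, 11.6) and a peak of the 5′ UTR class at FAF1 (chr1:50959843-50960342, 10.6). CDKN2D had 1 peak over an exon (chr19:10566809-10567308, 8.98), and 65 bp of it lay in the break of the shSMARCB1 domain. At CCND1 the nearest SMARCB1 peak lay 4455 bp outside the record, under the broad domain (chr11:69636201-69636700, 8.45), with a number that only 0.472% of peaks were below. CCND3 had an intronic peak (chr6:41976689-41977188, 10.6) and another at MED20 and BYSL (chr6:41921035-41921534, 10.6).

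CCND2 carried the SMARCB1 peak of highest number in the set. A peak of 3042 bp, of the authors' 3′ UTR class, lay at the right end of the gene record (chr12:4301983-4305024) with a number of 85, rank 31 of 4453 by number and rank 12 by width. Next to it lay a peak of 872 bp (chr12:4300368-4301239) with 22.7, rank 404. Neither overlapped H3K27ac in either library, and with the CDKN1A peak they were the 3 of 14 that did not, all of the 3′ UTR class. The other 11 overlapped H3K27ac in both libraries. The 3 peaks without it, 21.4% of the 14, compare with 28.3% of the whole list without H3K27ac in either library.

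This placing was also seen in the whole SMARCB1 list. Of 171 peaks of the 3′ UTR class, 37 overlapped H3K27ac in shSMARCB1 cells (21.6%, 16.1 to 28.4%) and 38 in shCon cells (22.2%, 16.6 to 29.0%), whereas 96.2% of promoter-TSS peaks did in shSMARCB1 cells and 96.7% in shCon cells. Intron, exon and intergenic classes lay between, at 59.3%, 57.3% and 53.5% in shSMARCB1 cells and 61.9%, 58.6% and 55.7% in shCon cells. The 3′ UTR class made up 3.84% of all SMARCB1 peaks and 12 of the 100 with the highest numbers. Of those 100, 39 overlapped no H3K27ac peak in either library, against 28.3% of all SMARCB1 peaks.

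**Figure D5:**
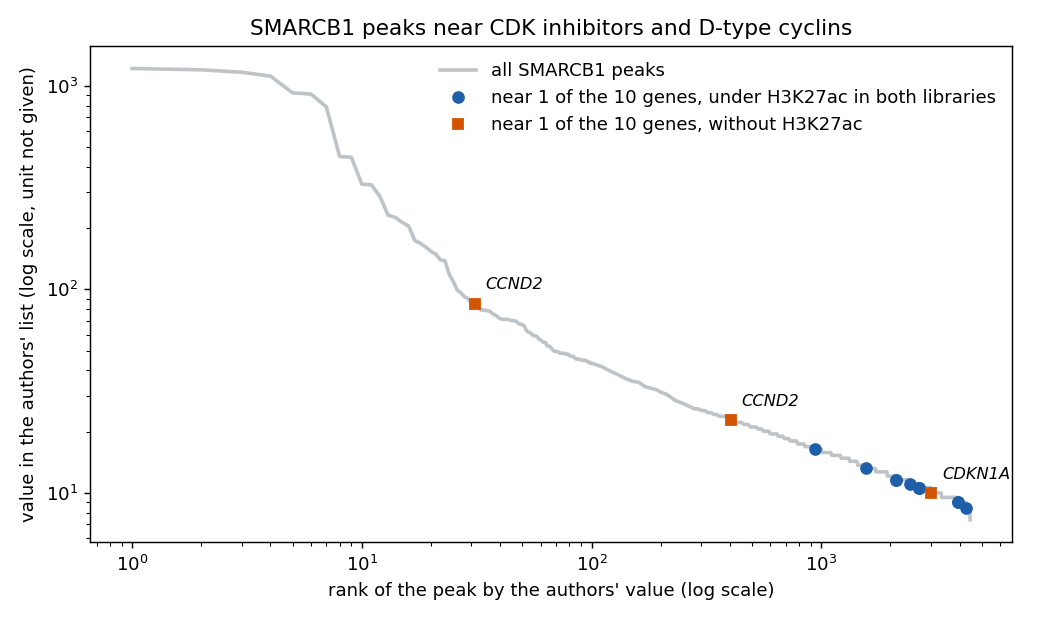
The authors' number for each SMARCB1 peak (vertical axis, log scale, unit not given) against its rank (horizontal axis, log scale). The grey line is the whole list, circles are peaks near the 10 genes under H3K27ac in both libraries, and squares are those without H3K27ac. A CCND2 peak at rank 31 lies far above all circles.

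Shared H3K27ac peaks near the 10 genes were split by whether a SMARCB1 peak overlapped them. With SMARCB1, 6 of 9 pairs were narrower in shSMARCB1 cells, with a median ratio of 0.909. Without it, 14 of 16 were narrower, with a median ratio of 0.864. Genome-wide, 77.2% of pairs with SMARCB1 were narrower and 68.7% of those without, at median ratios of 0.913 and 0.912. The interval for the 9 pairs, 35.4 to 87.9%, and that for the 16 pairs, 64.0 to 96.5%, include both of these shares.

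The genes that act beside these regulators were set against them as a list of 40 genes of the G1/S and RB-E2F pathway. All 40 were tested, 4 were called lower in shSMARCB1 cells, 2 were called higher and 34 were neither, beside 10.7% lower and 3.49% higher over all tested genes. The median ratio was 0.87, against 0.88 over all tested genes. Of the 40, 33 were below 1, as were 12434 of the 16135 tested genes. The share called lower was thus close to the background. H3K27ac lay at a gene end in both libraries for 38 of the 40, against 61.4% of all protein-coding genes. A SMARCB1 peak lay within 20 kb of 14, close to the share of 34.1% among genes with at least 500 bp of H3K27ac.

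The genes called lower were E2F2, TFDP1, CRYAB and RB1. With acetylated length divided by each library's total, E2F2 alone of these was called lower, while both genes called higher were called again. E2F2, which encodes an activating E2F, had 3806 bp in shSMARCB1 cells and 7086 bp in shCon cells, a ratio of 0.54. TFDP1, which encodes the DP1 partner of E2F proteins, had 2760 bp in shSMARCB1 cells and 4591 bp in shCon cells, a ratio of 0.60. CRYAB, whose chaperone product helps target cyclin D1 for degradation, had 2058 bp in shSMARCB1 cells and 3365 bp in shCon cells (0.61), none of it in the gene record itself. RB1, which encodes the RB protein, had 2349 bp in shSMARCB1 cells and 3529 bp in shCon cells, a ratio of 0.67.

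The 2 genes called higher were TFDP2, another DP partner, with 4249 bp in shSMARCB1 cells and 2767 bp in shCon cells (1.54), and CCNA1, which encodes a cyclin known from the germ line. CCNA1 had 907 bp in shSMARCB1 cells, outside its record, and 0 bp in shCon cells. The most acetylated genes of the list were not called. CDK6, the kinase partner of the D-type cyclins, had 43626 bp in shSMARCB1 cells and 48861 bp in shCon cells. CKS1B, a subunit needed to degrade the CDKN1B protein, had 14685 bp in shSMARCB1 cells and 18769 bp in shCon cells. The replication licensing genes CDC6 and CDT1 had 12784 and 10462 bp in shSMARCB1 cells, against 12619 and 11469 bp in shCon cells.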

How the data were processed

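ChIP-seq of H3K27ac and SMARCB1 in SK-Hep1 gave 1 library per group, named from the titles. The deposited values are peak positions in hg38. Per the submitters' processing notes, Bowtie2 and HOMER were used. Per the file headers, each H3K27ac list was called by HOMER in histone style from 1 library, both against the same control input, at 4-fold enrichment over both input and local background, with peaks of 500 bp at least 1000 bp apart stitched into regions. Fragment lengths were 158 bp (shSMARCB1) and 190 bp (shCon), with 55.1% and 53.8% of tags in peaks. The score column of both lists is constant. The numbers and position classes in the SMARCB1 list are the authors' own.

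From each H3K27ac list, 3 peaks outside the autosomes and X were left out. Positions are 1-based. Peaks were shared at an overlap of 1 base, checked with bedtools 2.31.1. Genes came from RefSeq (GRCh38.p14), without alternate or unplaced records. Acetylated length was summed over the gene record and 20 kb on either side. The rule for named genes took all 10 genes, the pathway genes with the largest called differences and the most acetylated sequence, and for each gene every SMARCB1 peak, the widest H3K27ac peaks and every peak of 1 library. Further shared peaks were described after their values were seen. The genes, lists and tests were chosen with earlier results of these data known. The overlap code was tested on simulated data. Values were computed with pandas 2.3.3 and NumPy 2.4.6 in Python 3.11.15, intervals with SciPy 1.17.1, and figures with matplotlib 3.10.9. Alternatives covered the window, the fold, the overlap, wider or merged peaks, the scale of covered length and the higher-ranked SMARCB1 peaks.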

Additional observations from a re-analysis of the deposited data

How the results depend on the processing

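Each result was compared with its value under every alternative that applied to it, so an alternative counts once per result. Counts and the summed ratio stayed within 1.5 times, or shares within their intervals, in 48 of these comparisons and changed in 7. The 1.5-fold call of a single gene of the 10 stayed in 45 comparisons, none of which altered the fold, and changed in 1. These changes, with the pathway genes whose calls differed, were as follows. Among pathway genes, E2F2 and CRYAB were not called lower in a 50 kb window, RB1 and TFDP1 not with peaks of 1000 bp or wider, and CCNA1 and TFDP2 were not called higher in windows of 5 or 10 kb. At a 1.25-fold threshold 2 of the 10 genes were called lower in shSMARCB1 cells, CDKN2D and CCND1, and 13 pathway genes were called in either direction. At 2-fold 1 pathway gene was called, and 3 were called when acetylated length was divided by each library's total, against 6 as reported. With peaks of 1000 bp or wider, 1 of the 10 genes was called lower (CDKN2D, ratio 0.65), against 13.2% of all genes, and 100% of shSMARCB1 peaks near the 10 genes had a shCon counterpart, against 92.8% of all. With the 50% of SMARCB1 peaks of higher number, 4 of the 10 genes had one within 20 kb, against 18.4% of all. Among these, CDKN2C counted only through a peak tied with the list's median number. CCND2 had no H3K27ac within 10 kb and so gave no ratio in the narrower windows. CCND3 turned to a ratio of 0.94 with a 50 kb window and 0.97 with peaks of 1000 bp or wider. Dividing by library totals, an alternative for these ratios chosen after seeing the data, gave 1.04 at CDKN1B and CDKN2C, 1.12 at CCND2 and 1.14 at CCND3, but 0.82 at CDKN2D and 0.88 at CCND1. The cause of these changes was not tested. Both H3K27ac lists have the same shortest width, 501 bp. No paired analysis was possible because each group had 1 library.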
